A study of Homo sapiens with 2 samples.

Results

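The peaks described here lay within the last 100 nt of messenger RNAs, next to the place where the poly(A) tail begins. They were all rows of the deposited peak lists whose summit fell in the 3′ UTR and at most 100 nt from the end of the representative coding transcript of the gene named in the row, for 3′ UTRs of 300 nt or more. The representative transcript came from GENCODE 29 on GRCh38, by best APPRIS tag (a ranking of a gene's main protein isoforms) and then longest coding sequence. This gave 1294 terminal peaks of 100792 rows in replicate 1 and 1393 of 109413 in replicate 2, or 2687 of 210205 in all. The rule used position only and no measured level.

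Both libraries belonged to the single group labelled TRACER, a word the labels do not explain. They were small-RNA libraries of cytoplasmic RNA from the human embryonic kidney cell line HEK293T, grown with doxycycline at 3 ug/mL for 24 hours. Each library has its own peak list, and the labels name no untreated, input or control library and no introduced gene. The stated purpose of the series was to find elements within RNA that associate with CCR4-NOT, and whether each replicate came from its own culture is not stated, so differences between them may be technical.

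Most messenger RNAs are cut and given a poly(A) tail a short way after a poly(A) signal, usually AAUAAA or AUUAAA, which the cleavage and polyadenylation specificity factor binds. Upstream of it, cleavage factor I binds UGUA in the nuclear precursor. CCR4-NOT shortens the tail in the cytoplasm, and adaptors such as the Pumilio proteins, which bind UGUANAUA (N is any base), bring it to chosen messages. The end of the 3′ UTR is therefore both the site of nuclear processing and the stretch closest to the substrate of the deadenylases.

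The sequences below are those of strong terminal peaks found in both libraries, shown so that summits with and without the recurring Pumilio element can be compared. Each is 30 nt of the GENCODE 29 transcript, 5′ to 3′, in RNA letters. The first 8 surround a Pumilio element, which is in capitals.
BBC3: auaugcgcugcUGUAGAUAccggaaugaau
TBX1: gUGUAGAUAcaUGUAGAUAcUGUAGAUAcu
NFKBIA: ccuguaaauggUGUACAUAauguauuguug
TADA1: uuguauagauaUGUAUAUAugguucacaua
WDR82: agucguuauucUGUAUAUAcaauuuuaugu
TBC1D14: cuuuuuugaauUGUAAAUAggugguuuuau
DENND4B: guuuuguuggaUGUAAAUAuaguaaaagcu
DLX5: aUGUAAAUAagUGUAGAUAgaggaauuaaa

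The next 7 surround the replicate 1 summit of strong terminal peaks with no Pumilio element there. Capitals mark UGUA alone, which CSNK1E and HMGB2 lack. These 7 are a selection and do not give the frequency of UGUA at such summits. Among the genes named here, ZNF703, H2AFX, MTRNR2L1 and HSPD1 also lack the Pumilio element there. They had higher mean reads than TGDS, but are not shown. The matching stretch holds no UGUA in H2AFX and MTRNR2L1, holds it in HSPD1, and is not given for ZNF703.
CSNK1E: uuugagcuuuaucgugguuguuaauuugaa
RNPS1: acuuuguugUGUAgaguggaagaauugugu
HMGB2: aauaguaaauuuuggguuuuuuaggauguu
XBP1: uuuccugcuagUGUAgcuucugaaaggugc
UBTD2: guauaauuuuaguaUGUAggguuuaugugc
CEBPB: agaaaagaggcgucUGUAuauuuugggaau
TGDS: aaUGUAuuuaaUGUAgaauauugcuuuuua

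Most terminal peaks held few reads, though they were somewhat stronger than the other 3′ UTR peaks. The median terminal peak held 6 reads in replicate 1 and 7 in replicate 2, against 5 and 6 for 3′ UTR peaks farther than 100 nt from the end. Reads are whole numbers per peak as deposited, are not normalised, and had a minimum of 3. The strongest terminal peak held 229 reads in replicate 1 and 344 in replicate 2. A deposited p-value at or under 1e-05 was listed for 39.5% of terminal peaks in replicate 1 (exact 95% binomial interval 36.8 to 42.2) and 41.8% in replicate 2 (39.2 to 44.4). For the other 3′ UTR peaks the shares were 32.2% and 35.3%, and over all peaks of each library 33.5% and 36.1%. Median widths were 33 and 34 nt for terminal peaks, against 30 and 31 nt for the other 3′ UTR peaks. Intervals cover counting error only. With 2 libraries of 1 group, a sign-flip permutation over libraries cannot give a p below 0.5, so differences between kinds of peaks are described and were not tested.

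Of the terminal peaks, 68.2% in replicate 1 (65.6 to 70.8) and 63.03% in replicate 2 (60.4 to 65.6) overlapped, by 1 nt or more and on the same strand, a peak called in the other library. For the other 3′ UTR peaks the values were 56.02% and 53.2%, and over all peaks 60.5% and 55.8%. The mean excess over the other 3′ UTR peaks was 11.02 percentage points. Peaks centred in the next 100 nt upstream stood closer, at 65.6% and 60.5%. Within classes of equal reads the order was the same up to 49 reads. Among peaks of 6 to 9 reads, 77.0% of terminal peaks and 65.3% of the others were found again in replicate 1, and 65.8% and 58.7% in replicate 2. At 50 reads or more, 30 of 30 terminal peaks of replicate 1 and 40 of 40 of replicate 2 were found in the other library.

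Merging overlapping terminal peaks gave 1832 regions in 1743 genes. Of these, 819 regions in 807 genes held a terminal peak in each library, 459 only in replicate 1 and 554 only in replicate 2. In the shared regions the median number of reads was 9 in replicate 1 and 10 in replicate 2. The log2 ratio of replicate 2 over replicate 1 had a median of 0.22 and quartiles of -0.19 and 0.58, and 89 regions (10.9%) differed by more than 2-fold. Regions are not independent replicates, and their log2 reads correlated between libraries with a Pearson coefficient of 0.836 over the 819.

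Summits were spread unevenly within the last 100 nt and were scarce at the very end. Only 84 in replicate 1 and 86 in replicate 2 lay in the last 30 nt, which is 6.49% and 6.17% of terminal peaks. Per position, there were 2.8 and 2.87 summits over the last 30 nt, against 17.3 and 18.7 from 31 to 100 nt and 14.2 and 15.5 in the next 100 nt upstream. The fullest 10-nt bin was 41 to 50 nt from the end, with 207 and 217 summits, and the median distance was 62 nt in each library. Counted as a whole, the last 100 nt held 0.903 ± 0.00703 times as many summits as the 100 nt before it (SD, n = 2), and 1.02 ± 0.0198 times as many as the 100 nt before that. In 3′ UTRs of 3000 nt or more the ratio to the preceding 100 nt was 0.961 in replicate 1 and 1.07 in replicate 2, so the libraries differed in direction there. Relative to the entire remaining UTR the last 100 nt was denser, with 2.03 and 2.13 summits per 1000 nt against 1.26 and 1.29, among genes with a 3′ UTR peak.

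**Figure D1:**
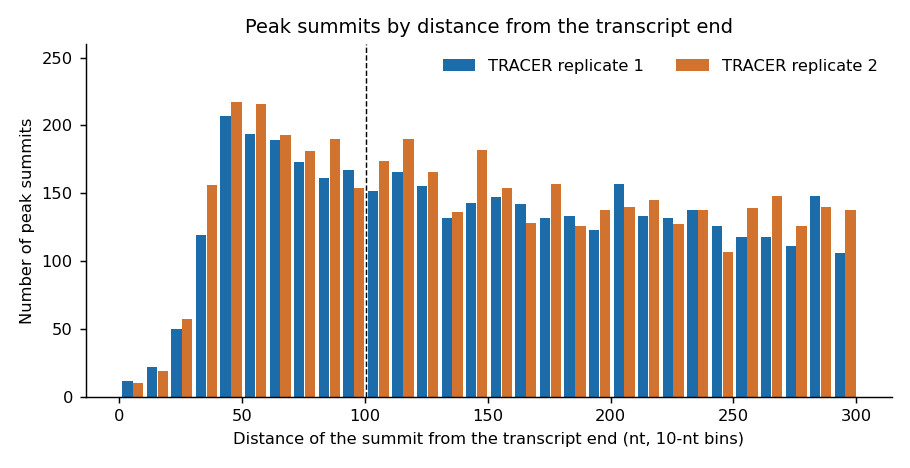
Number of peak summits (vertical axis) by distance of the summit from the transcript end in 10-nt bins (horizontal axis), for TRACER replicates 1 and 2. The dashed line is the 100 nt limit, and in each library at most 57 summits lie in any bin of the last 30 nt while 207 and 217 lie from 41 to 50 nt.

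The limit of 100 nt did not fall at a step in the data. From 91 to 100 nt, just inside it, there were 167 and 154 summits with medians of 6 and 7 reads. In the next 10 nt upstream, just outside, there were 152 and 174 summits with medians of 7 and 8 reads.

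The 3′ edge of a terminal peak lay a median of 44 nt from the transcript end in replicate 1 and 43 nt in replicate 2. It reached the last 10 nt in 4.25% and 3.45% of peaks, and passed the annotated end in 11 and 13. No row had its summit within 100 nt beyond an end that was the most distal of its gene. Every row is listed under a gene entry, so whether RNA past the ends was searched is not known from the files. How reads that run into the poly(A) tail were aligned is not given in the sources used here, and its part in the gap at the end was not tested.

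Peak cover fell ahead of the poly(A) signal and was low over it. Of 7325 genes with a 3′ UTR peak in either library, 5812 (79.3%) had AAUAAA or AUUAAA in the last 40 nt, with its first base at a median of 24 nt from the end. Peak cover per transcript position was highest 35 nt before the signal in replicate 1, at 10.2% of transcripts, and 40 nt before it in replicate 2, at 11.2%. Over the 6 bases of the signal it was 2.35% and 2.88%, and over the 10 nt after it 1.12% and 1.34%. The whole signal lay under a peak of both libraries in 57 of the 5812 genes, or 0.981% (0.744 to 1.27). In the 5598 genes with a 3′ UTR peak in each library, 1.21% of signals in the last 30 nt lay under peaks of both. All bases of those last 30 nt were covered at 1.25%, so the signal was covered about as its zone was. Whether the drop follows the signal or the distance from the end was not tested.

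**Figure D2:**
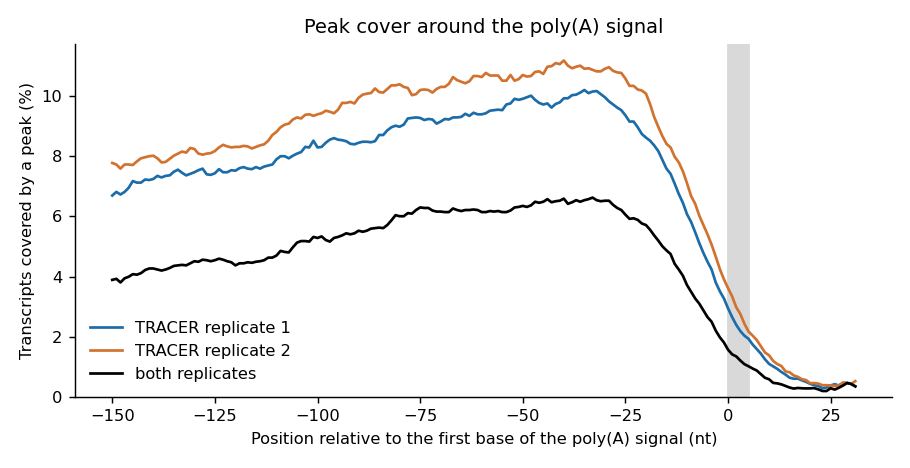
Percent of transcripts covered by a peak (vertical axis) by position relative to the first base of the poly(A) signal closest to the end (horizontal axis, nt; the grey band is the signal). Lines are TRACER replicate 1, replicate 2 and cover by both, over 5812 genes at the signal and at least 576 at each position, and cover falls from about 10.2% and 11.2% upstream to 2.35% and 2.88% over the signal.

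Of the terminal peaks in genes with such a signal, 96.8% of 1100 in replicate 1 and 97.3% of 1164 in replicate 2 had their summit upstream of it, by a median of 38 and 37 nt over all of them. Only 10.4% and 10.9% of these peaks reached the end of the signal. A terminal peak was present in 20.7% and 21.3% of genes that had a 3′ UTR peak and a signal, and in 14.6% and 16.3% of those with a 3′ UTR peak and no signal. The intervals were 19.6 to 21.8 and 20.2 to 22.4 with a signal, and 12.7 to 16.7 and 14.4 to 18.4 without one. They cover counting error over genes only, and the difference was not tested.

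The signal itself was no more frequent in terminal summit windows than at the same distances in all genes with a 3′ UTR peak. Those genes include the ones with terminal peaks. A window was the summit with 25 nt on each side, ended at the transcript end, and motifs were searched on the transcript strand only. AAUAAA or AUUAAA stood in 25.7% (23.4 to 28.2) of windows in replicate 1 and 26.1% (23.8 to 28.4) in replicate 2. Windows at the same distances in all genes with a 3′ UTR peak held it in 26.3% and 27.5%, and windows at the other 3′ UTR summits in 4.82% and 4.86%. In the whole last 100 nt, 84.1% and 83.5% of these genes had a match.

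The Pumilio element was 3 times as frequent at terminal summits as position alone gave. It occurred in 114 windows in replicate 1 (8.81%, 7.32 to 10.5) and 124 in replicate 2 (8.90%, 7.46 to 10.5). At the same distances in all genes with a 3′ UTR peak the shares were 2.85% and 2.95%, ratios of 3.09 and 3.02. At the other 3′ UTR summits they were 4.52% and 4.88%. The last 100 nt held the element in 5.57% and 5.71% of genes with a 3′ UTR peak. The reversed element AUANAUGU, of the same composition, stood in 2.24% and 2.58% of terminal windows against 1.65% and 1.77% at the same distances. The tetramer UGUA, which the Pumilio element contains, stood in 59.5% and 57.1% of terminal windows against 39.96% and 39.8% at the same distances.

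**Figure D3:**
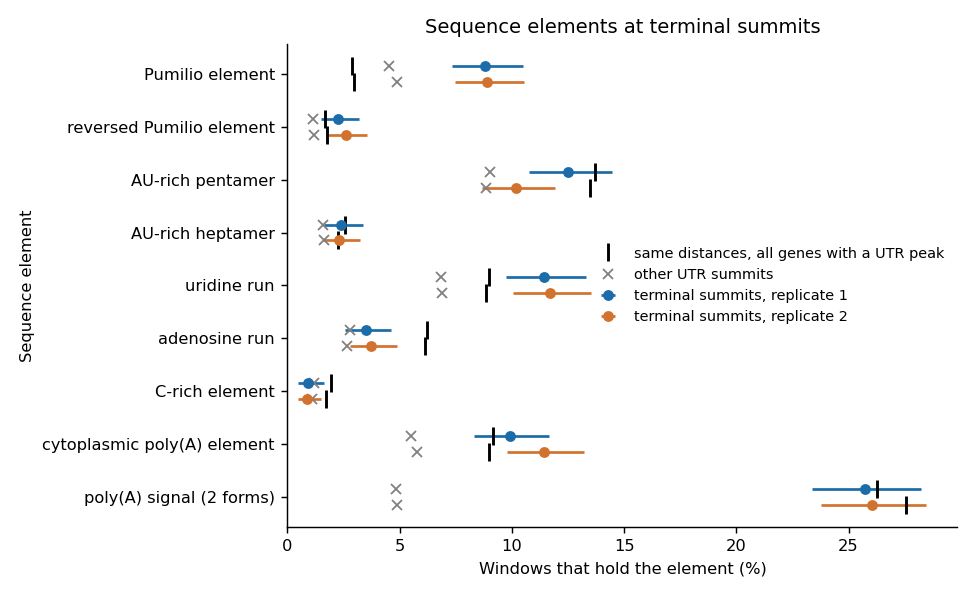
Percent of windows that hold each of 9 sequence elements (horizontal axis) at terminal summits of TRACER replicates 1 and 2 (points with exact 95% binomial intervals), at the same distances from the end in all genes with a 3′ UTR peak (bars) and at other 3′ UTR summits (crosses). Terminal points for the Pumilio element, 8.81% and 8.90%, lie above both comparisons, and those for the poly(A) signal lie beside the same-distance value.

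Terminal windows that held a Pumilio element had more reads and were found again more often. Their median was 8.5 reads in replicate 1 and 10 in replicate 2, against 6 in each library for windows without one. They were found in the other library in 90.4% and 83.9% of cases, against 66.1% and 60.99%. In 75.4% and 71.8% of them the element began between 10 nt upstream and 9 nt downstream of the summit. The variable base was A in 54 and 59 windows, U in 33 and 33, C in 22 and 26, and G in 9 and 10, with 2 or more elements in 5 and 7 windows. Of the 819 shared regions, 92 (11.2%, 9.15 to 13.6) had the element at the summit in both libraries.

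Seen from the element, those near the end were covered most when they stood clear of the last 30 nt. In the 5598 genes whose 3′ UTR held a peak in each library there were 244 Pumilio elements from 31 to 100 nt, and 96 of them (39.3%, 33.2 to 45.8) lay under peaks of both. Of 116 that ended in the last 30 nt, 11 did (9.48%, 4.83 to 16.3), and of 3326 in the rest of these UTRs 615 did (18.5%, 17.2 to 19.9). The cover of all bases moved with this, at 7.26%, 1.25% and 2.42% in the same 3 zones, so per covered base the element stood out less at 31 to 100 nt than in the rest of the UTR. By position of its first base, the share under both libraries was 24.7% from 31 to 50 nt, 41.5% from 51 to 75 nt and 38.0% from 76 to 100 nt, and 30.3% in the 50 nt before that. By variable base over the last 100 nt, 11 of 18 elements with G were covered (61.1%, 35.7 to 82.7), against 33.9% of 62 with C, 28.1% of 178 with A and 24.5% of 102 with U.

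**Figure D4:**
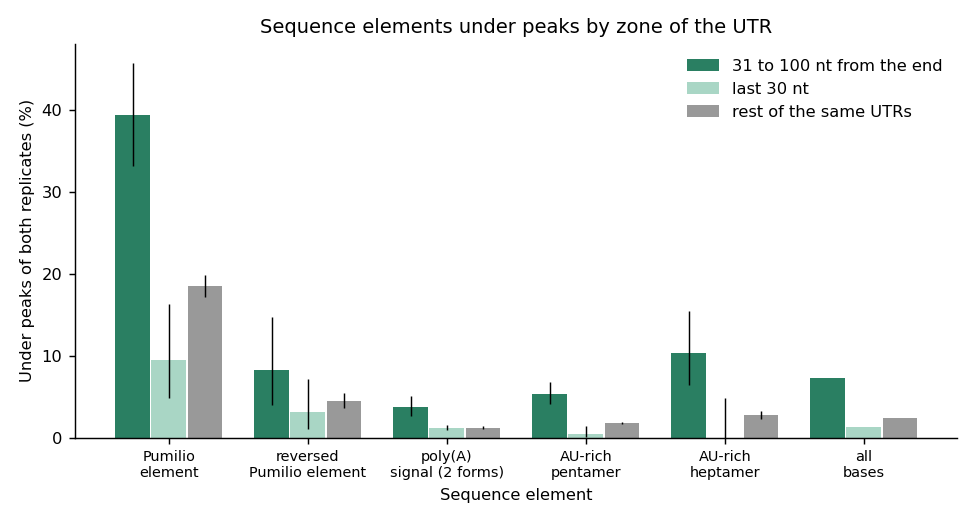
Percent of each sequence element, and of all bases, that lay under peaks of both TRACER replicates (vertical axis) from 31 to 100 nt from the transcript end, in the last 30 nt and in the rest of the same 3′ UTRs of 5598 genes, with exact 95% binomial intervals for the elements. Pumilio elements reach 39.3% from 31 to 100 nt, while poly(A) signals reach 3.72%.

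AU-rich elements, bound by decay factors such as the ZFP36 proteins, followed base cover more closely. The heptamer UAUUUAU was under peaks of both libraries in 20 of 194 cases from 31 to 100 nt (10.3%, 6.41 to 15.5), in 0 of 74 in the last 30 nt (upper limit 4.86%) and in 2.72% of the rest. At terminal summits it stood in 2.40% and 2.30% of windows, against 2.55% and 2.25% at the same distances. The pentamer AUUUA stood in 12.5% and 10.2% against 13.7% and 13.5%. Runs of 6 uridines stood in 11.4% and 11.7% against 8.99% and 8.86%, and runs of 6 adenosines in 3.48% and 3.73% against 6.20% and 6.13%. The site of miR-101 (GUACUGU), a microRNA, was held by 23 windows in each library, 1.78% and 1.65% against 0.719% and 0.691%. Sites of the miR-17 family were held by 9 and 15 windows, of the miR-92 family by 8 and 9, and of miR-16 by 15 and 10. Each of these shares was also above that at the same distances, with ratios of 1.14 and 1.78, 1.69 and 1.62, and 1.83 and 1.20. On so few windows, the intervals of miR-92 in each library, miR-17 in replicate 1 and miR-16 in replicate 2 included the same-distance share. The other 3′ UTR summits held these sites in 1.07% and 1.06%, 0.608% and 0.683%, and 0.965% and 0.969% of windows. Sites of let-7 were held by 2 and 3 windows, with ratios of 0.686 and 1.09.

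In base composition, terminal windows were richer in G and poorer in C and A than their positions gave. G made up 21.9% and 22.1% of their bases against 18.7% and 18.7% at the same distances, C 14.003% and 13.9% against 17.1% and 17.1%, A 27.4% and 27.7% against 29.6% and 29.7%, and U 36.7% and 36.4% against 34.6% and 34.5%. Among 2906 hexamers expected in at least 5 windows of each library, the one with the highest ratio was UGUAGA, in 79 windows against 20.7 expected in replicate 1 and 82 against 23.6 in replicate 2. UUGUAG followed with ratios of 3.28 and 3.07, then GUAGAG with 3.19 and 3.06. GGACUG, which lacks the GUAG that they share, had 2.92 and 2.87. Of the leading 20 hexamers, 4 held UGUA, and the share among all 2906 is not given here. UGUAGAUA, the Pumilio element that contains UGUAGA, stood in only 9 and 10 windows, so most windows with UGUAGA lacked it. These hexamers were picked for their ratios and were not tested.

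BBC3 had the strongest terminal peak. It encodes PUMA, a p53-induced activator of apoptosis. The region at chr19:47220875-47220974, minus strand, held 229 reads in replicate 1 and 344 in replicate 2, with the summit 95 and 96 nt from the end, just inside the limit, on UGUAGAUA. It made up 63.1% and 57.9% of the gene's 3′ UTR peak reads.

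CSNK1E, casein kinase 1 epsilon of the circadian clock and Wnt signalling, had 185 and 241 reads in its strongest peak, 41 nt from the end at chr22:38290703-38290807, minus strand. Its 3 terminal peaks carried 84.3% and 77.2% of its 3′ UTR reads. RNPS1, a splicing regulator found in exon junction complexes, had 138 and 171 reads at chr16:2253129-2253223, minus strand, 33 nt from the end. HMGB2, a chromatin protein that bends DNA, had 96 and 106 reads at chr4:173331738-173331815, minus strand. CSNK1E, RNPS1 and HMGB2 had no Pumilio element in the summit window, and RNPS1 had UGUAGA beside its summit.

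TBX1, a T-box factor of heart and pharyngeal development, had 78 and 108 reads at chr22:19767235-19767302, plus strand, where 3 copies of UGUAGAUA stood within 30 nt. All of its 3′ UTR peak reads were terminal. Another TBX1 transcript reaches 16259 nt further along the genome, so this end is not the most distal one. XBP1, the transcription factor of the unfolded protein response, had 67 and 104 reads at chr22:28794596-28794648, minus strand. NFKBIA, the inhibitor that holds NF-kappa-B in the cytoplasm, had 75 and 93 reads at chr14:35401552-35401601, minus strand, on UGUACAUA. TADA1, a subunit of the SAGA chromatin complex, had 76 and 90 reads at chr1:166856539-166856616, minus strand, with UGUAUAUA just downstream of the summit.

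UBTD2, which encodes a ubiquitin-domain protein, had 83 and 82 reads at chr5:172209673-172209749, minus strand. WDR82, a subunit of histone H3K4 methyltransferase complexes, had 68 and 92 at chr3:52254474-52254563, minus strand. Its UGUAUAUA stood in the summit window but downstream of the summit. CEBPB, a bZIP transcription factor, had 60 and 81 at chr20:50192578-50192626, plus strand. These 3 genes, like TBX1, H2AFX and MTRNR2L1, had no AAUAAA or AUUAAA in the last 40 nt. ZNF703, a zinc finger repressor, had 54 and 87 reads in its strongest terminal peak. Its terminal peaks, 2 in replicate 1 and 1 in replicate 2, summed to 78 and 87 reads, or 14.6% and 10.8% of its 3′ UTR reads.

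TBC1D14, a regulator of autophagy, had 59 and 77 reads at chr4:7033005-7033093, plus strand, on UGUAAAUA, and H2AFX, the histone variant marked at DNA breaks, had 61 and 74 at chr11:119093881-119093965, minus strand. MTRNR2L1, a humanin-like gene related to the mitochondrial large ribosomal RNA, had 84 and 47 reads at chr17:22524633-22524662, plus strand. How far reads of MT-RNR2, the mitochondrial ribosomal RNA gene, contributed to this peak was not tested. In the strongest terminal peak, 13 of these 15 genes had more reads in replicate 2, the exceptions being UBTD2 and MTRNR2L1. Summed over all terminal peaks, UBTD2 had 83 and 194 reads, NFKBIA 147 and 93, and TADA1 114 and 90.

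**Figure D5:**
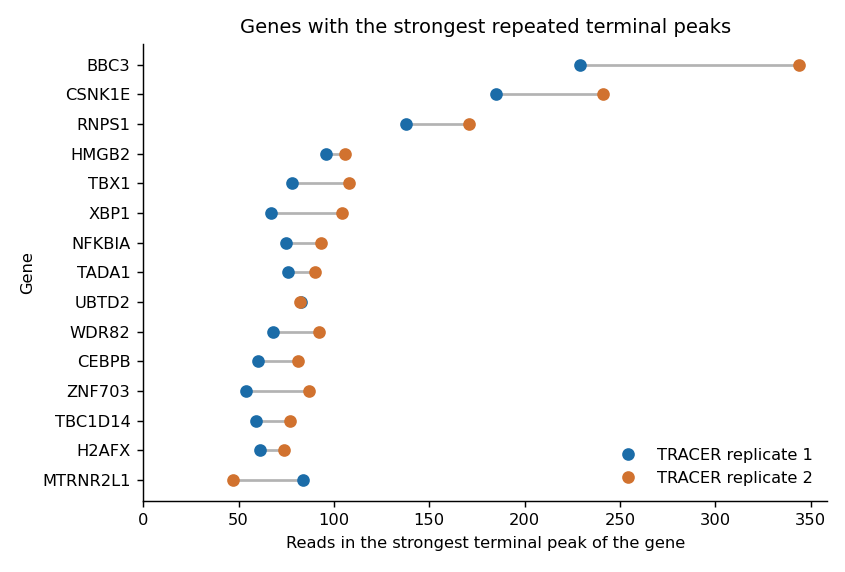
Reads in the strongest terminal peak (horizontal axis) of the 15 genes with the most reads in a region found in both libraries, with a point for each of TRACER replicates 1 and 2 and a grey line between them. BBC3 leads with 229 and 344 reads and the last gene, MTRNR2L1, has 84 and 47.

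Beyond these, DENND4B, an activator of Rab GTPases, had 44 and 45 reads on UGUAAAUA at chr1:153929509-153929581, minus strand, and 88.0% and 91.8% of its 3′ UTR reads were terminal. DLX5, a homeobox factor of bone and brain development, had 38 and 50 reads at chr7:97020410-97020484, minus strand, on a pair of elements, UGUAAAUA and UGUAGAUA. The genes with the most terminal peaks found in both libraries were CSNK1E, DEAF1 with 3 and 2, HMGB2 and TGDS with 2 each, and UBTD2 with 1 and 3. DEAF1, a transcription factor, had up to 21 and 36 reads only 26 and 24 nt from the end, and TGDS, a predicted sugar-nucleotide dehydratase, had 42 and 63 in its strongest, in a region at chr13:94574064-94574227, minus strand.

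At the level of genes, 1240 of 6370 genes with a 3′ UTR peak had a terminal one in replicate 1 and 1329 of 6553 in replicate 2, or 19.5% and 20.3%. In both libraries 826 genes had one. A single terminal peak was the rule, with 1188 and 1267 genes, and none had more than 3. The terminal peaks were the only 3′ UTR peaks in 218 and 236 genes. Where a gene had others too, a terminal peak was the strongest in 34.9% of 1022 genes and 34.7% of 1093. The share of genes with a terminal peak was 29.7% and 30.7% for 3′ UTRs under 1000 nt, 17.9% and 18.04% from 1000 nt to under 3000 nt, and 10.4% and 12.03% for longer ones.

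The 6 lists of genes were set beside that background of 19.5% and 20.3%. Among cleavage and polyadenylation factors, 4 of 16 genes with a 3′ UTR peak had a terminal one in replicate 1 and 3 of 14 in replicate 2. NUDT21, the UGUA-binding subunit of cleavage factor I, had 31 and 14 terminal reads, SSU72, a phosphatase of RNA polymerase II, 9 and 16, CLP1, an RNA kinase, 3 and 4, and PABPN1, the nuclear poly(A)-binding protein, 8 and 0. Among poly(A)-binding, deadenylase and TOB/BTG genes, 5 of 21 and 5 of 18 had one. BTG3, an antiproliferative protein, led with 31 and 32 reads, followed by PAIP2, an inhibitor of poly(A)-binding protein, with 21 and 15, CNOT11, a CCR4-NOT subunit, with 8 and 17, BTG2 with 6 and 18, and LARP1, a binder of TOP messages, with 8 and 11.

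Among CCR4-NOT adaptors the counts were 3 of 20 and 2 of 21, among them ZFP36L2, an AU-rich element binder, with 21 and 22 reads. Among immediate early and AU-rich element genes 6 of 17 and 5 of 21 had one, led by JUND, an AP-1 subunit, with 33 and 23 reads. Core translation and chaperone genes had 1 of 19 and 1 of 18, in both cases HSPD1, the mitochondrial chaperonin, with 65 and 55 reads. Nuclear-encoded oxidative phosphorylation genes had 2 of 11 and 1 of 10, led by SDHD, a subunit of complex II, with 9 and 6 reads. Another SDHD transcript reaches 24219 nt further along the genome, so the end used for SDHD is not the most distal one. With so few genes, no list was called different from the background.

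The annotation limits how far a terminal position can be read as a true end. The representative end was within 10 nt of the gene's most distal annotated end for 78.1% and 77.7% of terminal peaks, against 80.1% of all genes with a 3′ UTR peak, and for 14.3% and 14.8% another transcript reached over 1000 nt further. Another gene's exon lay on the same strand at 2.24% and 3.09% of summits and on the other strand at 7.19% and 6.39%. The same position was listed under several gene entries for 3.86% and 5.17%. None lay in an annotated small RNA gene.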

How the data were processed

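Peaks of 2 small-RNA libraries were used as deposited. The submitters' processing notes list cutadapt (4.2), UMI-tools (1.1.4), STAR (2.7.11) and GRCh38 without saying how each was used. The deposited files' names point to CLIPper as the caller, run on each library by itself, with version and annotation unknown. The score column deposited by the authors is a p-value per peak, not stated to be adjusted, at most 0.046. The deposited peak name ends in a whole number of reads. Sequencing depth is unknown, and reads were not scaled between libraries.

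Gene identifiers were matched to GENCODE 29 without their version (19811 of 20048). The midpoint of the thick interval was taken as the summit, and distance 1 is the last base of the transcript. Same-distance values average over all genes with a 3′ UTR peak, at the distances of the terminal peaks. No test was run, since the series has 1 group of 2 libraries. Software was Python (3.11.15), numpy (2.4.6), pandas (2.3.3), scipy (1.17.1, exact intervals) and matplotlib (3.10.9). The placement of peaks and counting of motifs were checked on simulated data.

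The genes named are the 15 with the strongest terminal region found in both libraries, the 8 strongest with a Pumilio element at both summits, the 5 with the most repeated terminal peaks and the leading member of each of the 6 lists. Other list members were named after their values were seen. The terminal peaks and the lists were chosen with earlier results of these data known. Alternatives changed the peak threshold, reads, window, transcript end, UTR length and overlap.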

Additional observations from a re-analysis of the deposited data

How the results depend on the processing

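Of 55 alternatives, 27 left a value within the spread between the libraries or, for the number of peaks, within 1.5 times, and 28 moved it further. The 27 include leaving out each library in turn. With 2 libraries that always gives a value within their spread, so those alternatives carry no information on stability. The cause of the moves was not tested, beyond fewer or more peaks being taken. Terminal peaks numbered 1343.5 per library on average, against 546.5 at p at or under 1e-05, 447 at 10 reads or more, 733.5 for UTRs of 1000 nt or more, 434.5 for the last 50 nt, 2831.5 for the last 200 nt and 1046 with only the most distal ends. The summit ratio of the last 100 nt over the next 100 nt upstream, 0.903, became 0.886 at the stricter p, 0.872 at 10 reads, 0.883 with only the most distal ends and 0.913 for UTRs of 1000 nt or more. The share found in the other library, 65.6%, became 75.2% at the stricter p, 76.1% at 10 reads, 60.1% where 50% of the peak had to be covered and 61.6% for the last 50 nt. In the full list of the other library, 93.4% of terminal peaks of 10 to 19 reads in replicate 1 and 89.7% in replicate 2 were found. The 76.1% therefore also reflects a shortened list of the other library. Its excess over other 3′ UTR peaks, 11.02 points, fell to 7.31 and 6.89 points at the stricter p and at 10 reads. Windows with AAUAAA or AUUAAA, 25.9%, became 21.48% and 21.46% at the stricter p and at 10 reads, 60.9% for the last 50 nt, 15.2% for the last 200 nt, 12.2% within the peak interval and 25.2% with 1 peak a gene. Windows with UGUANAUA, 8.86%, became 13.2% at the stricter p, 13.5% at 10 reads, 9.84% with only the most distal ends, 9.82% for UTRs of 1000 nt or more, 8.64% for the last 50 nt, 7.87% for the last 200 nt and 8.75% with 1 peak a gene.

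Leaving out each library in turn gave 1294 to 1393 peaks, summit ratios of 0.898 to 0.908, 63.03% to 68.2% found in the other library, an excess of 9.82 to 12.2 points, 25.7% to 26.1% of windows with the poly(A) signal and 8.81% to 8.90% with UGUANAUA. No paired analysis was possible because the labels give 1 group, so no samples pair across groups. Terminal and other 3′ UTR peaks were compared within each library, and 2 such differences cannot give a sign-flip p below 0.5. With no control library, RNA abundance and CCR4-NOT association cannot be told apart in the reads of a peak.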
